A study of Homo sapiens with 7 samples.

Results

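CTCF intervals of HCT116 cells were chosen by their positions in the deposited peak lists, with H3K36me3 taken as the mark of transcribed gene bodies. An interval of the CTCF list was selected when it overlapped an interval of the H3K36me3 list by at least 1 bp and overlapped no interval of the H3K4me1, H3K4me3 and H3K9Ac lists. This held for 3060 of 44812 CTCF intervals, or 6.83%, which are called body CTCF intervals here. The name stands for these overlaps only. Transcription was not measured, and 274 of them had their midpoint outside protein-coding genes. HCT116 is a human colorectal carcinoma line. The cells, with no treatment or genotype that differed between libraries, were grown to 200000 per well, crosslinked and sheared in a 96-well plate by the PIXUL sonicator, and each mark was immunoprecipitated from 1 well. The lists used were those of CTCF, H3K36me3, H3K4me1, H3K4me3, H3K9Ac and H3K27me3, with 1 library each, so no value has a replicate error and no test between libraries was possible. Shares are therefore given with 95% Wilson intervals and densities with 95% exact Poisson intervals, which cover counting error only.

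CTCF uses its zinc fingers to recognise a long, directional DNA sequence. Together with cohesin it holds the ends of chromatin loops, and the direction in which its site points is part of how a loop end is set. H3K36me3 is laid down by SETD2, which travels with elongating RNA polymerase II, so the mark covers the bodies of transcribed genes and tends to grow towards their 3′ ends. H3K4me3 and H3K9Ac mark active promoters, H3K4me1 marks enhancers and the flanks of promoters, and H3K27me3 is the mark of Polycomb repression. The overlap with H3K36me3 and the lack of the 3 active marks are the selection itself and are no finding. The deposited lists were made from populations of cells, so they do not show whether CTCF and H3K36me3 sat on the same chromosome copy. H3K27Ac was not analysed here.

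The sequences below are from hg19 and are written 5′ to 3′ on the strand on which the core sequence of CTCF reads. The 12 capitals mark that core, with 9 bases on each side. The first set holds the exact cores of 3 body CTCF intervals with fold enrichments above 19, and gives the site as it reads in some of the strongest intervals. The ZSCAN5A core itself lies outside H3K36me3, which overlaps its CTCF interval by 70 bp.
POLR3E, intron 13, chr16:22332712-22332741, minus strand: gcaagggcgCCACCAGGTGGCagtaacacg
ZSCAN5A, intron 2, chr19:56821094-56821123, minus strand: ccctacctcCCACTAGAGGGCgcgccccgc
DIAPH1, intron 18, chr5:140943953-140943982, minus strand: tgctttcagCCACCAGATGGCacatggatc
The second set holds cores in the last exons of genes, the part of the host gene in which the core was most common.
ENGASE, exon 14, chr17:77083836-77083865, plus strand: gggaagaggCCACCAGGTGGCagcacagcc
ZFYVE27, exon 13, chr10:99519348-99519377, plus strand: aggcagtagCCACCAGAGGGCagcagcgaa
NMT2, exon 12, chr10:15148574-15148603, minus strand: ctgagactaCCACCAGAGGGCgactgggcc
ACTN4, exon 21, chr19:39220496-39220525, plus strand: tgcgaggggCCAGCAGAGGGCgccaccacc
The third set shows a window that recurred nearly letter for letter in 38 body CTCF intervals.
USB1, intron 2, chr16:58039329-58039358, minus strand: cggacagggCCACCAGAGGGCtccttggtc
EP400, intron 12, chr12:132486249-132486278, minus strand: cggacagggCCACCAGAGGGCtcctgggtc
NSD2, intron 3, chr4:1914918-1914947, plus strand: cagacagggCCACTAGAGGGCtccttggac

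Most host genes carried the promoter mark H3K4me3, as most genes with H3K36me3 did. Of the 3060 body CTCF intervals, 2786 (91.0%, interval 90.0 to 92.0%) had their midpoint in a protein-coding gene of GENCODE 44, and 94.4% in a gene of any type. Across all CTCF intervals 51.6% lay in protein-coding genes, but of the 188 Mb under H3K36me3 and outside the active marks 176 Mb lie in such genes, so this share follows the selection. The canonical transcripts of 2155 host genes held 2703 of them, and the 83 others in genes lay outside the canonical transcript. An H3K4me3 interval lay within 1 kb of the canonical transcription start site (TSS) of 2072 host genes, or 96.1% (95.3 to 96.9%). The same held for 89.4% (88.8 to 90.0%) of all protein-coding genes that overlap H3K36me3 and for 61.6% of all protein-coding genes. It held for 57.7% of the hosts of CTCF intervals with none of the 4 marks. How far the share of the host genes comes with the selection was not tested. The body CTCF intervals themselves stood a median of 10085 bp from the nearest H3K4me1, H3K4me3 or H3K9Ac interval. The epithelial genes CDH1, CDX2, EPCAM, KRT18 and KRT8 carried H3K4me3 at the TSS. CDX1, KRT20 and VIL1, also of the epithelial and intestinal markers, did not, and neither did any of the 4 blood markers, while COL1A1 did among the 4 fibroblast markers.

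The fold enrichment of CTCF, which the peak caller gives as a linear ratio over its background, had a median of 6.75 in body CTCF intervals, with quartiles of 4.48 and 9.65 and a range of 1.82 to 23.5. CTCF intervals in protein-coding genes with none of the 4 marks are the most similar group, and their median was 6.59. Intervals under H3K4me1 or H3K9Ac without H3K4me3 had a median of 10.01. The limits in the study's Methods for CTCF, fold enrichment over 5 together with a q-value under 1e-10, were passed by 1586 body CTCF intervals (51.8%, 50.1 to 53.6%), beside 54.8% of all CTCF intervals. Body CTCF intervals were 638 bp wide in the median, with a GC content of 45.7%. The GC content was 43.1% in the unmarked genic intervals and 64.4% in those under H3K4me3. CpG dinucleotides numbered 1.20 per 100 bp, against 0.917 and 7.55 in those groups.

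The highest body CTCF intervals were spread over genes of unrelated roles. One was in intron 9 of RASA2, which encodes a GTPase-activating protein of Ras, at 22.9. POLR3E, a subunit gene of RNA polymerase III, held one in intron 13 at 22.2, the sequence of which opens the first set above. The actin nucleator SPIRE2, the ubiquitin ligase receptor ZER1 and the circadian repressor PER2 held theirs in introns 10, 15 and 17, at 19.8, 19.8 and 19.6. In ZSCAN5A, DIAPH1, RALGAPA1 and LINC02210-CRHR1 the interval was in intron 2, 18, 18 and 3, at 19.5, 19.5, 19.4 and 18.97. ZSCAN5A overlaps another protein-coding gene, so that its interval had 2 hosts. H3K36me3 covered only 70 of the 935 bp of the ZSCAN5A interval and 64 of the 827 bp of the ZER1 interval. BOP1, a ribosome biogenesis factor, held one at 19.4 outside its canonical transcript. Their distances to the TSS ran from 5.03 kb in ZSCAN5A to 122 kb in RALGAPA1, and 0 of these 10 had a near-identical copy elsewhere in hg19.

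The position in the gene was mostly intronic, and the exonic share was above that of the bases when all deposited intervals were counted. Of the 2703 intervals in canonical transcripts, 2263 (83.7%) had the midpoint in an intron, 241 (8.92%) in a coding exon, 198 (7.33%) in a 3′ UTR exon and 1 in a 5′ UTR exon. Exons together took 440 intervals, or 16.3% (14.9 to 17.7%), against 684 of 9534 unmarked genic CTCF intervals, or 7.17% (6.67 to 7.71%). H3K36me3 territory, meaning the bases under H3K36me3 outside the 3 active marks, is itself rich in exons: 12.9% of its bases in protein-coding genes were exonic, compared with 3.82% of the other gene bases. Counted against bases, with exons of all canonical transcripts, body CTCF intervals numbered 21.6 per Mb (19.03 to 24.5) of coding exon, 19.3 (16.8 to 22.1) of 3′ UTR and 15.1 (14.5 to 15.8) of intron or other gene bases. Unmarked genic CTCF intervals had the same order at 19.1, 16.9 and 10.4 per Mb. In coding exons and 3′ UTRs the intervals of both territories overlapped, whereas in introns they did not. Of all body CTCF intervals 386 (12.6%) had the midpoint outside the H3K36me3 interval. Counting them raises the densities of the territory and leaves them out of the unmarked group. Exons of all canonical transcripts held 16.7% (15.4 to 18.1%) of the 2786 genic body CTCF intervals. Among intervals past the limits of the Methods the exon share was 14.4% (12.6 to 16.3%), an interval that includes the 12.9% of exonic bases. The median GC content of the intervals was 50.9% in coding exons and 44.8% in introns, and its part in these densities was not tested.

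**Figure D1:**
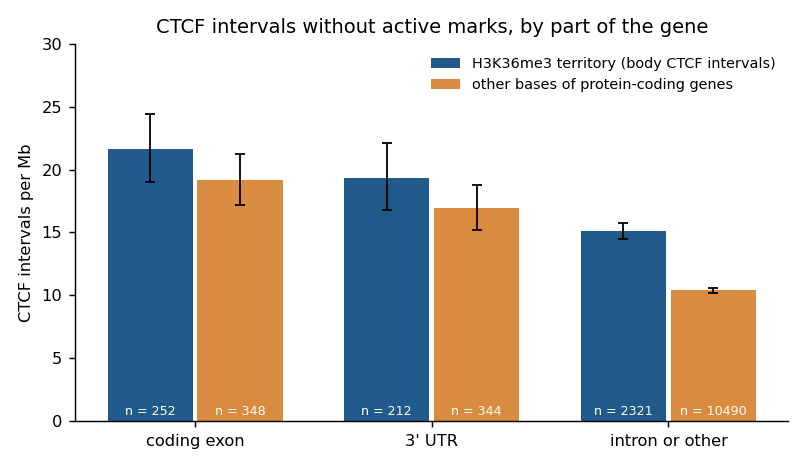
CTCF intervals without active marks per Mb (vertical axis) in coding exons, 3′ UTRs and the remaining bases of protein-coding genes. Blue bars are H3K36me3 territory and orange bars are other gene bases, n is the number of intervals, and error bars are 95% exact Poisson intervals. The blue bars fall from 21.6 to 15.1 per Mb, and the blue and orange error bars are apart in the rightmost pair. Body CTCF intervals with the midpoint outside H3K36me3 are counted in the blue bars.

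Within introns, body CTCF intervals lay closer to exons than unmarked genic CTCF intervals did. The midpoint of the intronic ones was a median of 771 bp from the nearest exon edge, against 4239.5 bp for unmarked genic CTCF intervals, and 57.7% (55.6 to 59.7%) against 22.6% (21.7 to 23.5%) were within 1 kb. The hosts differed in size too, with median canonical transcripts of 59.96 kb and 168 kb. The distance to exons was not measured for the intronic bases of H3K36me3 territory, which is itself rich in exons. How far the nearness comes with the selection was therefore not tested. Some base of the interval touched an exon in 42.9% of body CTCF intervals and in 16.2% of the others.

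The distance to the canonical TSS had a median of 32.5 kb, with quartiles of 14.8 and 69.6 kb. The unmarked genic CTCF intervals stood at 72.6 kb, and the bases of H3K36me3 territory, in bins of 1 kb, at 29 kb. Measured to the nearest TSS of any annotated transcript of the host gene, the median fell to 4.43 kb, so the distance is that to the canonical start and not to every annotated start. Within 5 kb of the canonical TSS lay 119 (4.40%, 3.69 to 5.24%), against 5.94% (5.48 to 6.43%) of unmarked genic CTCF intervals. At the other end, 570 (21.1%, 19.6 to 22.7%) lay within 5 kb of the transcript's end, compared with 8.64% (8.10 to 9.22%). Intron 1 held 4.24% of the intronic ones, against 20.6%. The farthest was in intron 14 of PTPRN2, at 931 kb from the TSS, with a fold enrichment of 4.599 and an overlap with H3K36me3 of 127 bp, and PTPRN2 had no H3K4me3 interval at that TSS.

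Along the host gene the body CTCF intervals rose in number towards the 3′ end, and more steeply than the territory in which they were looked for. Of 10 equal stretches of the transcript, the last held 502 of them, or 18.6% (17.2 to 20.1%), where 14.3% of the territory's bases lie, and the first held 80, or 2.96% (2.38 to 3.67%), against 5.06% of the bases. Per Mb of territory this went from 8.68 (6.89 to 10.8) in the first stretch to 19.4 (17.7 to 21.1) in the last. Where genes overlap, the bases were counted in each gene, but an interval only in the host with the longest canonical transcript. Intervals that reach an active mark were left out of the count, which removes those at marked starts of genes. Of the unmarked genic CTCF intervals 13.1% lay in the last stretch and 8.01% in the first. The median fold enrichment was 6.30 in the first stretch and 7.15 in the last.

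**Figure D2:**
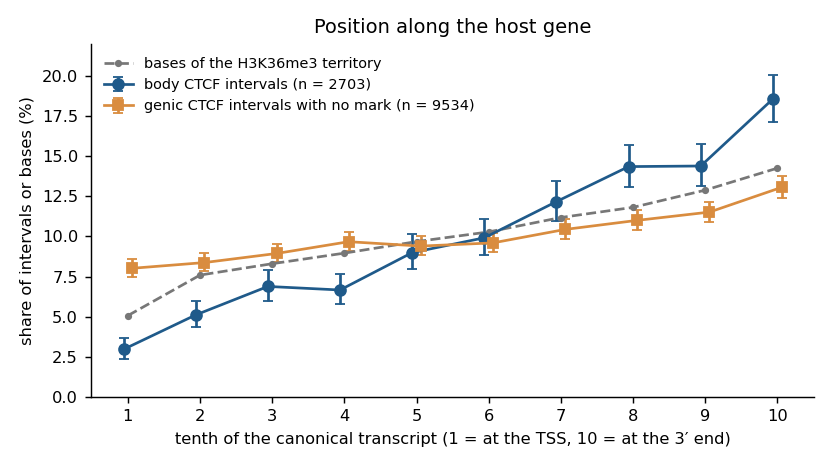
Share of intervals or bases (percent, vertical axis) in each of 10 equal stretches of the canonical transcript from the TSS to the 3′ end. Blue circles are body CTCF intervals and orange squares are genic CTCF intervals with none of the 4 marks, both with 95% Wilson intervals, and the dashed line gives the bases of H3K36me3 territory. The blue points start at 2.96%, below the dashed line, and end at 18.6%, above it.

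Body CTCF intervals were denser than CTCF intervals in unmarked sequence. H3K36me3 territory came to 188 Mb and held 16.2 body CTCF intervals per Mb (15.7 to 16.8). Other bases of protein-coding genes without active marks held 10.7 (10.5 to 10.9), and bases outside these genes 9.40 (9.25 to 9.56). An overlap of 1 bp also counts intervals at the edge of the territory, and with at least 50% of the CTCF interval covered the density was 14.2. By chromosome the density ran from 11.6 per Mb (8.11 to 16.0) on chromosome 18 to 20.8 (16.8 to 25.6) on chromosome 22, and the 4 intervals on chromosome Y lay in a territory of 0.003045 Mb. H3K36me3 covered 2469 body CTCF intervals (80.7%) from end to end. The H3K36me3 intervals that held one were 10166.5 bp wide in the median, compared with 2094.5 bp for all 40010, and had a median fold enrichment of 3.36 against 2.97. A wide interval has more room to hold a CTCF interval. The 2 shortest overlaps were 1 bp, in intron 3 of ARL6IP6, and 3 bp, in intron 6 of YEATS4, with CTCF fold enrichments of 6.56 and 5.55. Just outside, 2 CTCF intervals met an H3K36me3 interval with a gap of 0 bp, in CCNYL1 at 6.28 and ARAP2 at 5.70. The widest body CTCF interval, of 5296 bp at chr1:323541-328836, lay outside protein-coding genes and had 2 near-identical copies in hg19.

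Second copies in the genome were searched for body CTCF intervals only, so there is no share of other CTCF intervals to compare with. A near-identical copy, with at least 95% identity over at least 50% of the interval, was found for 178 (5.82%). The share was 4.02% (3.35 to 4.82%) in protein-coding genes and 24.1% (19.4 to 29.5%) among the 274 outside.

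Overlap with the H3K27me3 list, which the selection did not use, was seen for 5 body CTCF intervals (0.163%, 0.0698 to 0.382%). It was 0.648% (0.432 to 0.971%) when the active marks were held to the limits of the Methods, and 0 of 1586 among CTCF intervals past those limits, where the interval reaches 0.242%. Among unmarked genic CTCF intervals it was 7.16% (6.70 to 7.65%), and among all CTCF intervals 5.71%. The bases differed in the same direction, with 0.0264% of H3K36me3 territory under H3K27me3 against 9.12% of other gene bases. The interval share of 0.163% was above that of the territory's bases, but an interval counts from 1 bp of overlap, so the 2 measures differ. How far the low share comes with the selection of H3K36me3 was not tested. One of the 5 was in intron 4 of FYB2, chr1:57242612-57242944, with a fold enrichment of 6.34. The others were outside protein-coding genes, on chromosomes 2, 12, 18 and 20, at 4.90, 3.86, 3.65 and 3.43. Interval names in the H3K27me3 list do not carry the name of the cell line as those of the other lists do.

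The core sequence of CTCF, searched on both strands, was present without a mismatch in 501 body CTCF intervals, or 16.4% (15.1 to 17.7%), beside 15.7% of all CTCF intervals. The same intervals moved by 10000 bp held it in 0.654%. With at most 1 mismatch the shares were 57.3% and 6.34%. The core sat a median of 37 bp from the midpoint of the interval and within 100 bp in 79.0%. A G followed the last base of the core, making a CpG, in 22.4% (18.9 to 26.2%) of body CTCF intervals with the core. This share was 22.1% in unmarked genic intervals, 32.8% under H3K4me1 or H3K9Ac without H3K4me3, and 49.0% under H3K4me3. ZSCAN5A, in the first set above, is an example with that CpG.

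Fold enrichment was higher where the core was closer to complete. The median was 9.27 (8.72 to 9.78) with the exact core, 7.51 (7.24 to 7.75) with 1 mismatch and 5.28 (5.07 to 5.45) with neither. Read the other way, the exact core was present in 6.14% of the lowest of 4 equal groups by fold enrichment, and in 12.03%, 16.6% and 30.7% of the following ones. A high value did not need the exact core, as the RASA2 interval at 22.9 had none within 1 mismatch.

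**Figure D3:**
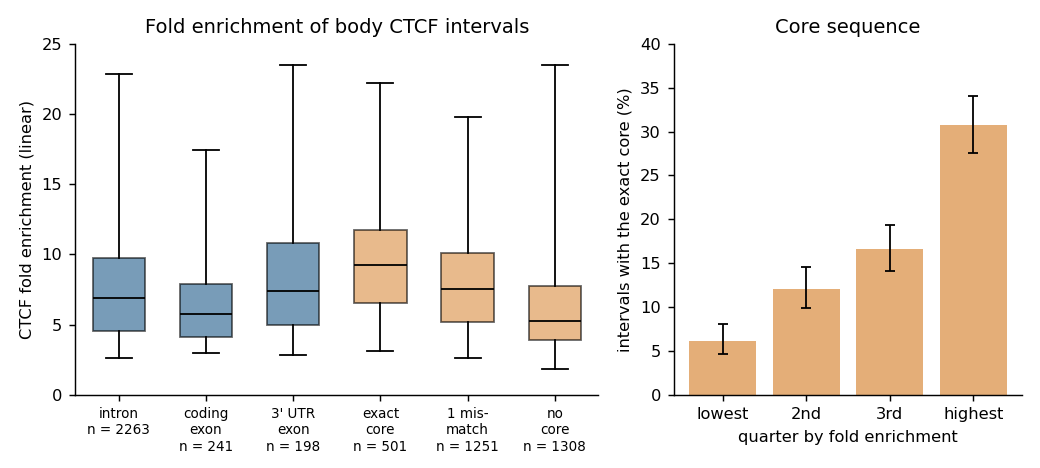
Left, CTCF fold enrichment (linear, vertical axis) of body CTCF intervals by part of the host gene (blue) and by core sequence (orange), with boxes from quartile to quartile, a line at the median and whiskers to the lowest and highest value. Right, share of intervals with the exact core (percent) in each of 4 equal groups by fold enrichment, with 95% Wilson intervals, which climbs from 6.14% to 30.7%.

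Coding exons and 3′ UTR exons differed in both measures. Body CTCF intervals in coding exons had a median fold enrichment of 5.75 and the exact core in 9.96% (6.78 to 14.4%). Those in 3′ UTR exons had a median of 7.41 and the core in 26.3% (20.6 to 32.8%), and those in introns 6.89 and 16.2% (14.8 to 17.8%). Unmarked genic CTCF intervals had the same order of fold enrichment, with medians of 5.57 in coding exons, 7.19 in 3′ UTR exons and 6.57 in introns. They held the exact core in 11.6% (8.58 to 15.4%), 16.2% (12.6 to 20.5%) and 16.3% (15.5 to 17.1%). The exonic intervals with the highest fold enrichment and a core were in 3′ UTR exons. Among them were ENGASE, a cytosolic enzyme that trims N-glycans, at 18.1, and ZFYVE27, an endoplasmic reticulum protein of neurite growth, at 17.5. NMT2, which attaches myristate to proteins and overlaps a further gene here, followed at 15.4. The sphingosine-1-phosphate lyase gene SGPL1 had 15.1, the endocytic adaptor EPN1 14.7, the actin crosslinker ACTN4 14.3 and the chaperone gene CLU 14.2. In SGPL1 the core read against the gene, and in the other genes named here it read with it. Their cores lay from 2 bp (ACTN4) to 88 bp (NMT2) from the midpoint of the interval. The EPN1 core lay outside H3K36me3, which covered 282 of the 806 bp of its CTCF interval.

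A count of all exact cores in hg19 gave the share that lay in a CTCF interval. In H3K36me3 territory this was 489 of 792 cores, or 61.7% (58.3 to 65.1%), against 59.7% (58.1 to 61.4%) in other gene bases and 59.9% (58.4 to 61.3%) outside genes. Under an active mark it was 89.9% (88.6 to 91.1%). Cores themselves, in CTCF intervals or not, numbered 4.20 per Mb in H3K36me3 territory, 3.34 in other gene bases and 3.01 outside genes. The 3′ UTRs of the territory had 7.56 cores per Mb, its coding exons 6.35 and its introns 3.68. In other gene bases these parts had 4.62, 6.54 and 3.26. Cores of the territory lay in a CTCF interval in 37 of 74 cases in coding exons, or 50% (38.9 to 61.1%). The share was 59.0% (48.3 to 69.0%) in 3′ UTRs and 63.8% (59.8 to 67.7%) in introns. In other gene bases these shares were 40.3% (32.0 to 49.3%), 71.3% (61.4 to 79.4%) and 60.2% (58.5 to 61.8%). This count and the following one were chosen after values had been seen.

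The form of the core printed above for ZFYVE27 and NMT2 was the most common in body CTCF intervals, with 84 of 501 (16.8%, 13.8 to 20.3%), against 10.03% (9.32 to 10.8%) of the cores in the other CTCF intervals. Of these 84, 33 belonged to a recurring window of 30 bases, of which copies in USB1, EP400 and NSD2 are shown above, and 51 were among the 463 other intervals with a core. This window, with at most 6 differences from its majority sequence, that of USB1, was found in 38 body CTCF intervals on 16 chromosomes. This was 7.58% (5.58 to 10.2%) of those with a core, against 3.36% (2.95 to 3.83%) of the others. The window was picked as the one most repeated among the cores of body CTCF intervals. A higher share among them therefore follows from that choice and is no finding. Of these 38, 35 were in introns and 1 in a 3′ UTR exon, that of SURF6, a nucleolar protein gene. FANCA, a DNA repair gene, held the window in introns 11 and 30, and the chromatin remodeller gene EP400 held it in introns 12 and 41. The median fold enrichment was 8.41 with the window and 9.39 with another exact core. In all of hg19 the window occurred 272 times, and 262 of these (96.3%, 93.4 to 97.99%) lay in a CTCF interval. In H3K36me3 territory this held for 36 of 37, a share that rests on the intervals from which the window was defined. Reads that map to several places were not followed here, since the lists hold no reads.

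**Figure D4:**
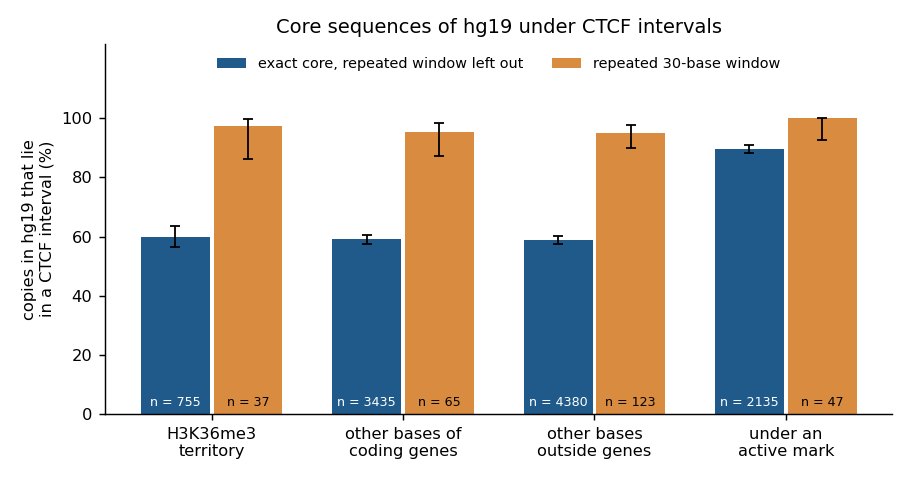
Share of the exact cores of hg19 that lie in a CTCF interval (percent, vertical axis), in H3K36me3 territory, in other bases of protein-coding genes, outside genes and under an active mark. Blue bars leave out the recurring window, orange bars show the window alone, n is the number of copies in hg19, and error bars are 95% Wilson intervals. The 3 blue bars without active marks lie between 58.9% and 60%, and each orange bar is above 95%. The window was defined from body CTCF intervals, so its bar in H3K36me3 territory follows from that choice.

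The core pointed with the gene about as often as against it. Among exact cores in canonical transcripts, where all host genes had 1 orientation, 209 of 423 lay on the strand of the gene, or 49.4% (44.7 to 54.2%). With at most 1 mismatch it was 779 of 1483, or 52.5% (49.98 to 55.1%), against 47.9% (46.5 to 49.2%) of unmarked genic CTCF intervals. The host genes themselves were on the plus strand for 49.6% of body CTCF intervals, and 4.22% had hosts on both strands. The recurring window read with the gene in 11 of 36 (30.6%, 18.0 to 46.9%), and the other exact cores in 198 of 387 (51.2%, 46.2 to 56.1%). Neighbouring body CTCF intervals in a gene, with at most 1 mismatch, pointed the same way in 95 of 193 pairs, towards each other in 46 and away from each other in 52. The same-way share was 49.2% (42.3 to 56.2%), and in unmarked genic CTCF intervals it was 51.5% (49.3 to 53.7%).

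Most host genes had 1 body CTCF interval. There were 1710 such genes, 367 with 2, 61 with 3 and 17 with 4 or more. TBCD, which encodes a tubulin folding cofactor, had the most, with 8, all in introns. The 4 nearest to its TSS, between 15.3 and 29.9 kb, had fold enrichments of 9.80, 11.9, 12.1 and 15.0 and lay in 1 H3K36me3 interval, chr17:80714159-80745512. The other 4, between 76.1 and 182 kb, had 3.44, 4.03, 5.35 and 4.07. All of the first 4 were thus above all of the last 4. The TBCD interval at 12.1 carried the recurring window and had 2 near-identical copies in hg19. DST was among the genes with 5. In DST, a gene of a cytoskeletal linker, they had 6.30, 3.91, 6.52, 10.7 and 4.91 at 255.6 to 384 kb from the TSS, and the 4 with a core or a 1-mismatch core all read with the gene.

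**Figure D5:**
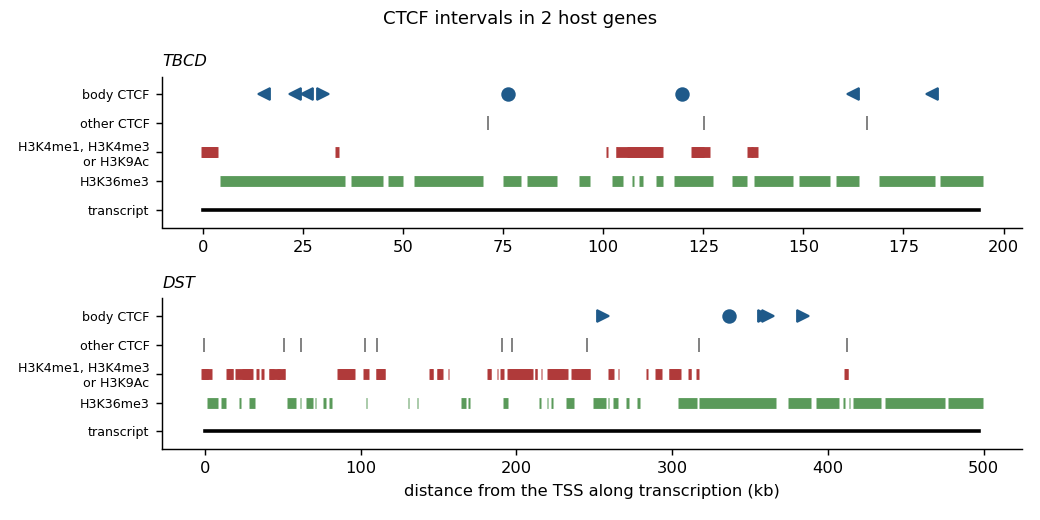
Maps of TBCD and DST, with the distance from the TSS along transcription (kb) on the horizontal axis of each. Blue symbols are body CTCF intervals, with a triangle pointing right where a core with at most 1 mismatch reads with the gene, left where it reads against it, and a circle where there is none, grey ticks are other CTCF intervals, red bars active marks and green bars H3K36me3. In TBCD 4 triangles crowd between 15.3 and 29.9 kb, and in DST the symbols begin at 255.6 kb.

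Body CTCF intervals were present in genes of colorectal cancer, of elongation and of CTCF itself. Of all 20163 protein-coding genes 10.995% held one, and of genes overlapping H3K36me3 the share went from 8.39% in those under 25 kb to 31.4% in those of 100 kb or more, so the share grows with length. The 30 colorectal cancer genes, with a median length of 75.8 kb, included 12 with one, among them CTNNB1, ERBB3, KMT2C, KMT2D, PMS2, POLE, SMAD3 and TCF7L2. TCF7L2, the transcription factor of the Wnt pathway, held intervals of 12.7 and 10.5 in intron 5. The H3K4 methyltransferase gene KMT2D held one in coding exon 23 at 9.12, and KMT2C held 2, at 11.2 in intron 53 and 4.28 in coding exon 47. The DNA polymerase gene POLE had 8.38 in intron 40.

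Of 34 genes of H3K36 methylation and transcription elongation, 14 held one, at a median length of 76.0 kb. RTF1 and CTR9, both of the PAF1 complex, had 14.0 in intron 5, and 11.4 in intron 18 with 4.26 in intron 5. CDK12, a kinase of the RNA polymerase II tail, had 8.22 in intron 13 with an exact core and 12.8 beyond its canonical transcript. NSD2, an H3K36 methyltransferase, had 12.1 in intron 3 at the recurring window, where the core sat 0 bp from the midpoint. The DNA methyltransferase gene DNMT3B, whose protein binds H3K36me3, had 12.03 in intron 7, and the H3K36 demethylase gene KDM2B 10.9 in coding exon 19. Of 15 genes of CTCF and cohesin, 5 held one. The cohesin loaders MAU2 and NIPBL had 18.7 in intron 9, and 11.9 and 3.07 in introns 16 and 34. The cohesin subunit RAD21 had 5.78 in intron 11 with an exact core, STAG2 had 3.18 outside its canonical transcript, and CTCF had 4.89 in intron 4 of its own gene. The STAG2 interval had 1 near-identical copy in hg19. With shares of 40%, 41.2% and 33.3%, the lists are set beside 28.4% for genes of 50 to 100 kb that overlap H3K36me3, and these genes were picked for their roles with earlier results known, so nothing particular to them is read from this.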

How the data were processed

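Chromatin of HCT116 cells sheared with PIXUL gave 7 ChIP-seq libraries, and 6 deposited lists of broad intervals, 1 per mark, were used. The members and gene lists were chosen with earlier results of these data known.

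Reads were aligned to hg19. The submitters' processing notes name bcl2fastq 2.20.0.442, BWA 0.7.12, SAMtools 0.1.19 and MACS 1.4.2, whereas the Methods name MACS2 with a broad cutoff of 0.1. The fold enrichment that the authors deposited is a linear ratio over background, and the deposited −log10 values (p-value in 1 column, q-value in another) also describe whole intervals. Intervals on both sides of the limits of the Methods were kept. Peaks were called per library, and depth is unknown from the lists, which can change how many intervals are called and how wide they are.

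Overlaps needed 1 bp and were checked against bedtools 2.31.1. Intervals were placed by midpoint in canonical transcripts of protein-coding genes of GENCODE 44 on hg19, and the part of the gene, distance and strand were taken there. An interval with several hosts was placed in the host with the longest canonical transcript. The core sequence was matched in hg19 with pyfaidx 0.9.0.4, and copies were searched with minimap2 2.31-r1302. Python 3.11.15, numpy 2.4.6, pandas 2.3.3, scipy 1.17.1 and matplotlib 3.10.9 were used. The overlap and core code was tested on simulated data.

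Regions were named by rule: the 12 genic members with the highest fold enrichment, the 8 highest exonic ones with a core, the 3 genes with the most, the extremes of distance, width and overlap, and at most 6 genes per list. Sequences of chromosome 8 are not printed, and some of the regions so named are not reported here. Genes named for the recurring window, for H3K27me3 and for ties were chosen after their values were seen. The alternatives were other limits on each list, 50% coverage, a clearance of 2000 bp from active marks, other exon, gene and TSS definitions, and other core searches.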

Additional observations from a re-analysis of the deposited data

How the results depend on the processing

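No paired analysis was possible because 1 library represents each mark. Of 50 values recomputed under other settings, 33 moved by less than their counting interval, or for numbers of intervals stayed within 1.5 times, and 17 moved. With CTCF intervals past the limits of the Methods, 1586 remained, with 14.4% in exons, 23.7% with the exact core, 8.42 per Mb and 0% under H3K27me3. Active marks past those limits gave 18.5 per Mb and 0.648% under H3K27me3. H3K36me3 intervals with a q-value below 0.01 brought the median distance to the TSS to 29111 bp. Coverage of at least 50% gave 14.2 per Mb. With the limits on all lists 4 intervals were left, too few for the other values. Other definitions moved values by construction: 94.4% in genes of any type, 26.2% in exons of any transcript, 42.9% with any base in an exon, 4430 bp to the nearest TSS of the host and 23104 bp to that of any gene, and the core in 57.3% with at most 1 mismatch and in 13.8% within the central 300 bp. For the other settings the cause was not tested. The share of cores on the gene's strand moved under none of its 6 settings. With 1 library per mark, counting error is the only error that could be given, and only 8 body CTCF intervals lay in H3K36me3 intervals past the limits.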
